A study of Mus musculus with 5 samples.

Results

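Called DNase I peaks were examined around 5 circadian genes whose promoters or enhancers are classically driven through E-boxes: Per1, Per2, Nr1d1, Dbp and Bhlhe40. The members were all peaks overlapping fixed mm9 windows, namely chromosome 11 from 68885000 to 68945000 (Per1), chromosome 1 from 93285000 to 93385000 (Per2), chromosome 11 from 98605000 to 98660000 (Nr1d1), chromosome 7 from 52935000 to 52990000 (Dbp) and chromosome 6 from 108580000 to 108645000 (Bhlhe40). Peaks that overlapped between lists were joined into sites, which gave 45 sites in the windows out of 52181 in all. Per1 had 11 sites, Per2 had 7, Nr1d1 had 12, Dbp had 9 and Bhlhe40 had 6.

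The cells were 3T9 fibroblasts, an immortalised mouse line made here from E13.5 embryonic fibroblasts of mixed strain. All libraries carried floxed c-myc alleles and MycER, a Myc fusion to an estrogen receptor domain that becomes active when 4-hydroxytamoxifen (4-OHT) binds. The 2 libraries per treatment were 4 h of 400 nM 4-OHT, and ethanol vehicle at 0 h. The labels name no promoter for MycER, do not say whether the floxed alleles were deleted, and do not say whether libraries came from separate cultures. DNase-seq marks chromatin that DNase I can cut, which is mostly chromatin free of nucleosomes.

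Of the 4 deposited peak lists, the one for 4-OHT replicate 1 and the one for vehicle replicate 2 were identical, so 3 distinct lists remained. They are named the 4-OHT list (4-OHT replicate 2, 47621 peaks), the twice-labelled list (44956 peaks) and the vehicle list (vehicle replicate 1, 35149 peaks). With 1 list of undisputed label per treatment, differences between treatments could not be checked in replicates or tested. Treatment and replicate letter also cannot be told apart between the 4-OHT and vehicle lists. Read depth is unknown, and the deposited score of a peak is the caller's own value, with a pile-up at 3100 that is called the ceiling here. The ceiling was reached or passed by 10.4% of the peaks of the 4-OHT list, 14.7% of those of the twice-labelled list and 7.85% of those of the vehicle list. At the 31871 sites found in every list, the median ratio of scores in the 4-OHT list over the vehicle list was 1.53. A ratio near that value at a single site therefore says nothing particular about the site. The fibroblast label was not checked against marker genes, since no mm9 gene positions were used.

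The mammalian circadian clock is a feedback loop in which the bHLH factors CLOCK and BMAL1 bind E-boxes, with the core letters CACGTG, and activate their own repressors. Per1 and Per2 encode period proteins, which join the cryptochromes to inhibit CLOCK and BMAL1. Nr1d1 encodes REV-ERB alpha, a nuclear receptor that represses the Bmal1 gene. Dbp encodes a PAR bZIP activator of D-box genes and is a classical output gene of the loop. Bhlhe40 encodes DEC1, a bHLH repressor that itself binds E-boxes. Myc with its partner Max binds the same core letters, so clock E-boxes are also possible Myc sites. The clock runs in cultured fibroblasts as well as in animals.

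RefSeq promoters were used to show where such letters lie, and 3 of the 5 genes (Per1, Nr1d1 and Dbp) matched, with 4 starts in all. The 250 bases before each start are shown 5′ to 3′, with the E-box core CACGTG in capitals. The related clock variant CACGTT is in capitals as well. On the other strand the variant reads AACGTG. Their positions are on GRCm38.p6 and cannot be set against the mm9 positions of the peaks.
Per1, first start (GRCm38.p6, chr11:69098699-69098948, plus strand): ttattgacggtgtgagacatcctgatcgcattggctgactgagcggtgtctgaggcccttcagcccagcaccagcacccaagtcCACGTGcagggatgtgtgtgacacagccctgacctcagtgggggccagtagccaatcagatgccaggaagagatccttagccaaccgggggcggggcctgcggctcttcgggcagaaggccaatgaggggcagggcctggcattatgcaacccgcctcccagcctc
Per1, second start (GRCm38.p6, chr11:69099902-69100151, plus strand): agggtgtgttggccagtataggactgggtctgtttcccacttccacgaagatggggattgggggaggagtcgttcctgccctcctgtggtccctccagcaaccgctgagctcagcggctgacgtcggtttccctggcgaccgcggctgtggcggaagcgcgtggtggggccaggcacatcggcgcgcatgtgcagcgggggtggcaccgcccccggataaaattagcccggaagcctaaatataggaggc
Nr1d1 (GRCm38.p6, chr11:98775378-98775627, minus strand): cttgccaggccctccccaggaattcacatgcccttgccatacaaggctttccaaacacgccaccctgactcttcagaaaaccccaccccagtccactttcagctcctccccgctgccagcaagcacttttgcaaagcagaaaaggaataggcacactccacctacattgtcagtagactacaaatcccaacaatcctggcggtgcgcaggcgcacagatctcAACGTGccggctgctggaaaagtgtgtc
Dbp (GRCm38.p6, chr7:45704997-45705246, plus strand): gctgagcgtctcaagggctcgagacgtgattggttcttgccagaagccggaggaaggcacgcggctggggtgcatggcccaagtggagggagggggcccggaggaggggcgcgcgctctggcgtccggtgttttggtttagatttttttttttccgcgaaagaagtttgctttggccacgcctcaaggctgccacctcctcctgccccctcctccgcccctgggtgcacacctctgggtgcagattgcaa

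The first Per1 promoter held 1 CACGTG, whose first base lies 166 bases before the start. The second Per1 start lies 1203 bases further on, and its window held neither form. The Nr1d1 promoter held AACGTG from 28 bases before the start, and the Dbp window held neither form. Of all 32851 RefSeq promoters of the same length, from 250 bases before to 50 after the start, 7.15% held CACGTG and 4.68% held CACGTT on either strand. Among 13 other clock genes with a promoter in the table, CACGTG was found in Bhlhe41, Ciart, Cry1 and Tef (5 of 17 promoters), and CACGTT in Cry1 and Cry2. The D-box letters TTATGTAA and the CRE letters TGACGTCA were in 0.938% and 1.79% of all promoters. Neither was found in the 4 member promoters, which says only that these letters are not in these windows. GGGCGG, the core of a GC-box, was in 3 of the 4 member promoters and 35.7% of all promoters, and CCAAT was in 3 of 4 and 37.4%. The 250 bases shown were 62.0% and 64.0% G or C at the Per1 starts, 62.4% at Dbp and 54.8% at Nr1d1, with a median of 52.4% over all promoters.

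Every window held a leading site at the ceiling in all 3 lists. In each list its widest peak was wider than at least 95.6% of the peaks of that list, the lowest share being that of Per2 in the vehicle list. The leading site was taken as the site with the highest score in its lowest list, ties going to the longest call in the 4-OHT list. Several sites were tied at the ceiling at Per1 and Nr1d1, so the width of the leading site there follows in part from this rule. The leading site lay within 4 kb of the window's centre at Per1, Nr1d1, Dbp and Bhlhe40 and 20.7 kb above it at Per2. No mm9 annotation was at hand, so these sites are not assigned to a promoter or to a gene. In RefSeq order the nearest protein-coding neighbours are Vamp2 and Hes7 at Per1, Hes6 and Traf3ip1 at Per2, Thra and Msl1 at Nr1d1, Car11 and Sphk2 at Dbp, and Itpr1 and Arl8b at Bhlhe40, and peaks in the windows may belong to them.

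**Figure D1:**
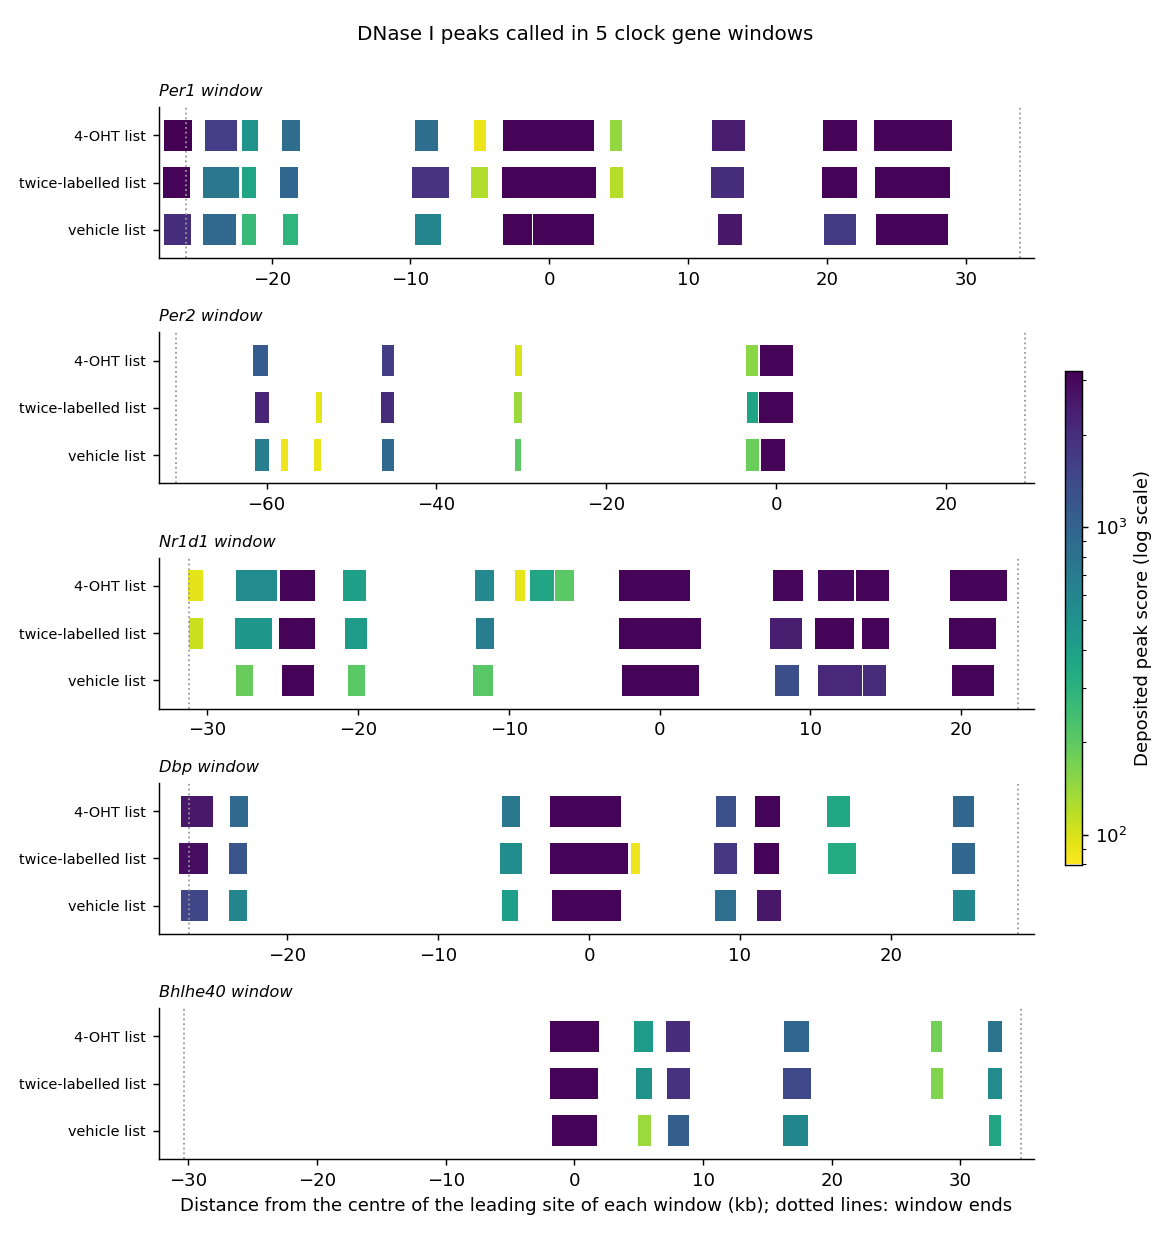
Peaks of the 5 windows, drawn to scale as distance in kb from the centre of each leading site, with 1 row per list and colour giving the deposited score on a log scale. The broad dark bars at 0 are the leading sites at the score ceiling, and the Nr1d1 panel shows 3 neighbouring bars to their left in the 4-OHT list alone.

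The leading Per1 site (chromosome 11, 68907745 to 68914515) was the widest of the 5. It was called over 6519 bp in the 4-OHT list, 6771 bp in the twice-labelled list and 6481 bp in the vehicle list. The first 2 lists called it as 1 peak, and the vehicle list as 2 peaks separated by 72 bp. Among the 31871 sites found in every list, 1.36% were likewise 1 peak in the first 2 lists and more in the vehicle list. The Per1 site was wider than 99.8% of all sites, and wider than 97.3% of the 2731 sites at the ceiling in every list. It was chosen by length from the tied ceiling sites of its window, so these shares follow in part from the choice.

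The leading Nr1d1 site (chromosome 11, 98633493 to 98638931) was called over 4703 bp in the 4-OHT list, 5439 bp in the twice-labelled list and 5084 bp in the vehicle list. It was the 1 leading site called shorter in the 4-OHT list (a difference of −381 bp from the vehicle list). The leading Dbp site (chromosome 7, 52958921 to 52964140) was called over 4757 bp in the 4-OHT list, 5191 bp in the twice-labelled list and 4609 bp in the vehicle list.

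The leading Per2 site (chromosome 1, 93353712 to 93357675) was called over 3938 bp in the 4-OHT list, 3959 bp in the twice-labelled list and 2736 bp in the vehicle list. The difference of 1202 bp between the 4-OHT and vehicle lists was the largest among the 5 leading sites. The twice-labelled list, which may be of either treatment, was 1223 bp longer than the vehicle list there. The leading Bhlhe40 site (chromosome 6, 108608432 to 108612194) was called over 3746 bp in the 4-OHT list, 3703 bp in the twice-labelled list and 3520 bp in the vehicle list. At the 32 member sites with 1 peak in each list, 24 (75%) had their wider peak in the 4-OHT list when it was set against the vehicle list. The same was true of 68.1% of the 29977 such sites in the genome, and depth moves width, so no widening is read from these values.

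**Figure D2:**
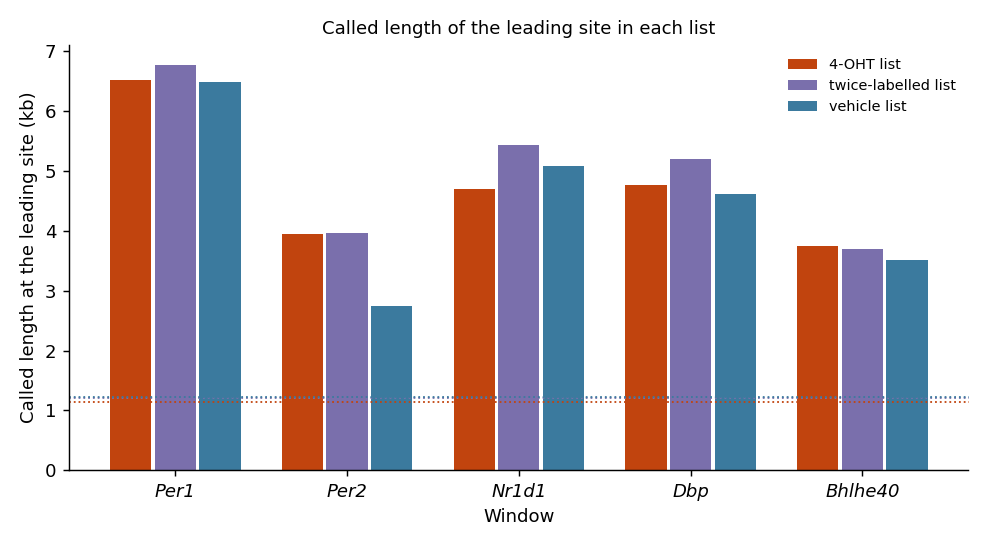
Called length in kb of the leading site of each window, with 1 bar per list in the order 4-OHT, twice-labelled and vehicle, and dotted lines at the median peak width of each list. All bars stand above the medians of 1136 bp, 1215 bp and 1222 bp, and the bars within a gene differ most at Per2.

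A score at or above the ceiling in every list was found at 8 of the 45 sites (17.8%, Wilson 95% interval 9.29% to 31.3%), against 5.23% of all sites. Beside the 5 leading sites these were 1 further site at Per1 (chromosome 11, 68934478 to 68940135) and 2 at Nr1d1 (98610992 to 98613381 and 98655422 to 98659256). The second Per1 site was called over 5658 bp in the 4-OHT list, 5437 bp in the twice-labelled list and 5153 bp in the vehicle list. The median width of the 8 sites was 4592 bp, and that of all ceiling sites was 2494 bp. These intervals hold counting error alone and treat sites as independent, which close neighbours need not be. The windows were drawn around genes, and the 5.23% is over all sites, not matched for nearness to genes. The difference therefore describes the windows only.

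The windows of Nr1d1, Per1 and Dbp were dense in sites, and those of Per2 and Bhlhe40 less so. When the genome was cut into tiles as long as each window, 0.265% of the tiles with any site held as many sites as the Nr1d1 window. The share was 0.903% for Per1, 1.89% for Dbp, 13.4% for Bhlhe40 and 17.7% for Per2. A site at the ceiling in every list was in 13.0% to 17.4% of the tiles. The windows were drawn around genes and the tiles were not, so the shares describe the windows only.

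Called peaks covered 49.8% of the Nr1d1 window in the 4-OHT list, 42.8% in the twice-labelled list and 35.9% in the vehicle list. At Per1 the shares were 42.7% in the 4-OHT list, 45.2% in the twice-labelled list and 37.4% in the vehicle list. At Dbp they were 27.0%, 29.6% and 22.9% in the same order of lists. Bhlhe40 had 16.8%, 16.9% and 14.0%, and Per2 had 9.20%, 10.0% and 9.56%. Per2 was thus the sparsest window, and the 1 window with less called in the 4-OHT list than under vehicle. Median peak widths at Per1 were 2020 bp in the 4-OHT list, 2366 bp in the twice-labelled list and 2019 bp in the vehicle list. At Nr1d1 they were 1951, 2255.5 and 1631 bp in the same order of lists. Outside the leading sites, peaks were 882 to 5658 bp wide at Per1, 667 to 1770 bp at Per2, 625 to 3820 bp at Nr1d1, 647 to 2134 bp at Dbp and 858 to 2120 bp at Bhlhe40. The Per2 sites ended 27.3 kb before the window's end, with a further gap of 26.3 kb below the leading pair. The Bhlhe40 sites began 28.4 kb inside the window, so they all lay at or above the leading site.

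Most sites were found in every list. This held for 34 of the 45 sites (75.6%, Wilson 95% interval 61.3% to 85.8%), against 61.1% of all sites. The windows were drawn around genes, and the shares over all sites are not matched for score or nearness to genes. The comparisons here therefore describe the windows only. Among the 42 sites of the 4-OHT list, 8 went uncalled in the vehicle list (19.0%, 9.98% to 33.3%), against 29.6% of the whole list. Among the 36 sites of the vehicle list, 2 went uncalled in the 4-OHT list (5.56%, 1.54% to 18.1%), against 3.87%. These numbers depend on list length. With each list held to its 35149 highest-scoring peaks, 4 sites of the 4-OHT list went uncalled in the vehicle list. In the other direction, 3 sites of the vehicle list went uncalled in the 4-OHT list. The shares over all sites are those of the full lists and cannot be set against these counts. Among the 41 sites of the twice-labelled list, 6 went uncalled in the vehicle list (14.6%, 6.88% to 28.4%), against 26.6%. By pattern, 5 sites were shared by the 4-OHT and twice-labelled lists alone (11.1%, against 14.1% of all sites), and 3 were in the 4-OHT list alone (6.67%, against 12.3%). The twice-labelled list alone held 1 site (2.22%, against 8.53%). The twice-labelled and vehicle lists together held 1 site (against 1.18%), and the vehicle list alone held 1 site (against 1.34%). With 45 sites, each of the single sites is too small a count to set apart from the background. The median member peak scored above 72.0% of the 4-OHT list (43 peaks), 75.6% of the twice-labelled list (42 peaks) and 71.4% of the vehicle list (38 peaks).

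**Figure D3:**
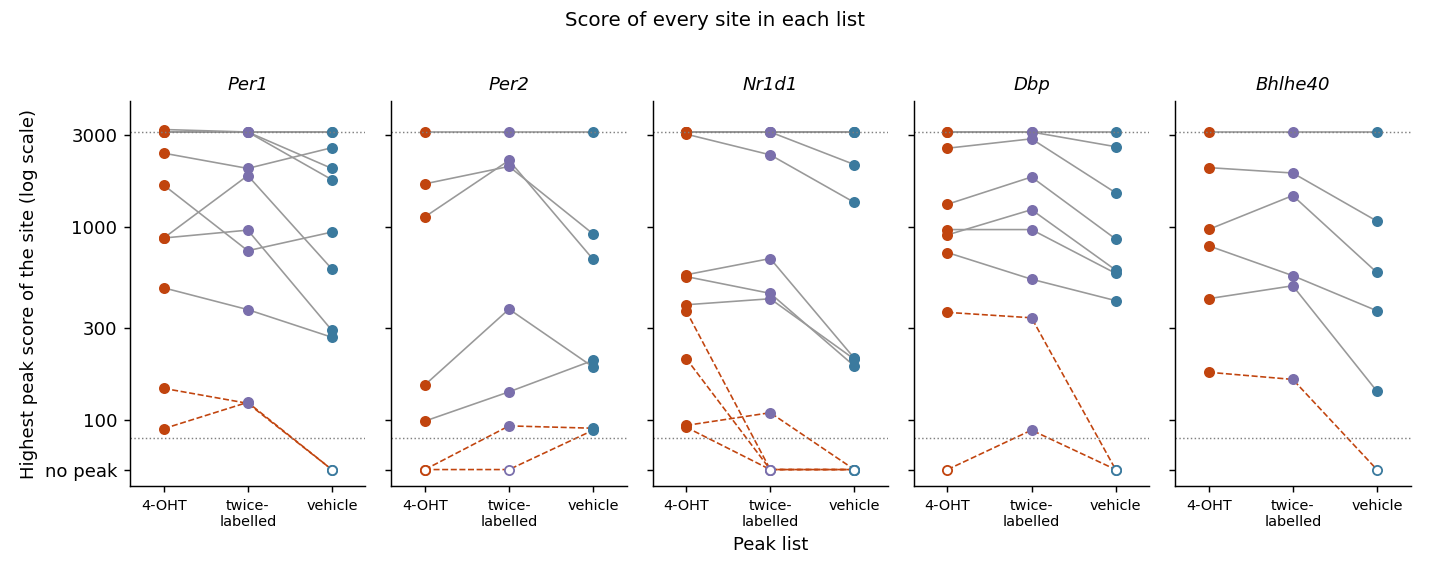
Highest peak score of each site (log scale) in the 4-OHT, twice-labelled and vehicle lists, with 1 line per site and dotted lines at scores of 80 and 3100. Open circles mark a list without a peak, and dashed lines the 11 sites missing from some list, of which 8 are in the 4-OHT list and uncalled in the vehicle list.

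Per1, the period gene most quickly induced by clock-resetting signals, had 9 of its 11 sites in every list. Above the leading site lay a site at 68922753 to 68925224, with scores of 2407 in the 4-OHT list, 2006 in the twice-labelled list and 2569 in the vehicle list. It was 1 of the few sites with its highest score in the vehicle list, a pattern that 2.86% of the sites found in every list had. The next site, at 68930766 to 68933302, was at the ceiling in the 4-OHT and twice-labelled lists and scored 1754 in the vehicle list. The site at 68883334 to 68885415, across the window's lower end, scored 3194 in the 4-OHT list, 3100 in the twice-labelled list and 2006 in the vehicle list.

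Below the leading Per1 site the lists differed without a common order. The site at 68901248 to 68903917 scored 873 in the 4-OHT list, 1843 in the twice-labelled list and 604 in the vehicle list. The site at 68886176 to 68888746 scored 1645 in the 4-OHT list, 751 in the twice-labelled list and 938 in the vehicle list. The first had its highest score in the twice-labelled list and the second its lowest there. The site at 68891699 to 68893172 scored 874, 960 and 290 in the same order of lists, a ratio of 3.01 between the 4-OHT and vehicle lists. The site at 68888962 to 68890163 scored 482, 372 and 267.

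The leading Per1 site was flanked by 2 weak sites that the vehicle list lacked. The lower one (68905484 to 68906731) lay 1013 bp away and scored 89.6 in the 4-OHT list and 123 in the twice-labelled list. The upper one (68915486 to 68916426) lay 970 bp away and scored 145 and 121. Weak sites of this kind were often missing from the vehicle list: of the sites of the 4-OHT list with scores within a factor of 1.1 of these, 28.0% and 39.7% were in the 4-OHT and twice-labelled lists and not in the vehicle list.

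Per2, whose protein is a limiting part of the repressor complex, had 5 of its 7 sites in every list. Next to the leading site, with a gap of 72 bp, was a site at 93352172 to 93353639. It scored 151 in the 4-OHT list, 374 in the twice-labelled list and 187 in the vehicle list. Further down, the site at 93309158 to 93310719 scored 1669 in the 4-OHT list, 2055 in the twice-labelled list and 918 in the vehicle list. The site at 93294113 to 93295970 scored 1125, 2210 and 677 in the same order of lists. Both of these sites were highest in the twice-labelled list.

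A weak Per2 site at 93324874 to 93325828 ran against the order of the other lists. It scored 98.1 in the 4-OHT list, 139 in the twice-labelled list and 203 in the vehicle list. Ranked among the sites found in every list, it differed by −30.3 percentage points between the 4-OHT list and the vehicle list. Between the twice-labelled list and the vehicle list it differed by −25.8 points. Of the 31871 such sites, 46 (0.144%) had differences as low or lower in both. This site had the lowest differences of the 34 member sites found in every list, and was singled out after its values had been seen. The vehicle list also held 2 weak Per2 sites that the 4-OHT list lacked. The one at 93297419 to 93298199 scored 88.0 in the vehicle list alone, and the one at 93301312 to 93302174 scored 92.7 in the twice-labelled list and 90.1 in the vehicle list. Both were near the weakest peaks that were called.

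Nr1d1, the gene of REV-ERB alpha, had 8 of its 12 sites in every list. The 3 strong sites above the leading site were 98643528 to 98645702, 98646530 to 98651422 and the ceiling site already named. The first scored 3022 in the 4-OHT list, 2359 in the twice-labelled list and 1336 in the vehicle list. The second was 2 peaks in every list, and its higher peak scored 3100 in the 4-OHT list, 3100 in the twice-labelled list and 2101 in the vehicle list. It was 1 of 2 member sites with several peaks in some list, the other being the leading Per1 site (5.88% of 34, against 5.94% of all sites found in every list).

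On the lower side of Nr1d1, 3 sites found in every list had middling scores in the 4-OHT list and low ones in the vehicle list. The site at 98608064 to 98610826 scored 551 in the 4-OHT list, 451 in the twice-labelled list and 189 in the vehicle list, with widths of 2734, 2438 and 1125 bp. The site at 98623850 to 98625247 scored 563, 684 and 208 in the same order of lists. The site at 98615232 to 98616795 scored 394, 423 and 205. Ranked among the sites found in every list, the 3 differed between the 4-OHT and vehicle lists by 15.1, 12.7 and 2.2 percentage points, in the order named. The weak site at the window's lower end (98604965 to 98605945) scored 93.2 in the 4-OHT list and 108 in the twice-labelled list, and went uncalled in the vehicle list.

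Between these and the leading Nr1d1 site lay 3 neighbouring sites that only the 4-OHT list held. They ran from 98626654 to 98630544 and ended 2.95 kb below the leading site, with 3511 bp called in 3 peaks and gaps of 312 and 68 bp. Their scores in the 4-OHT list were 91.2, 366 and 207. The middle one (98627591 to 98629205, 1615 bp) ranked 10 among the 6416 sites of the 4-OHT list alone, whose median score was 103. Of the 2128 sites of the 4-OHT list within a factor of 1.1 of its score, 11 (0.517%) were in that list alone. Runs of 3 or more such sites within 1 kb of each other numbered 2 in the genome for the 4-OHT list and 4 for the twice-labelled list, and this was the 1 run in the windows. The run was singled out after its values had been seen. It rests on 1 library, and the twice-labelled list, which may be a 4-OHT library, lacked all 3 sites.

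Dbp, the D-box activator, had 7 of its 9 sites in every list, and their ranks differed little between the 4-OHT and vehicle lists. The strongest beside the leading site, at 52972486 to 52974256, scored 3100 in the 4-OHT list, 3100 in the twice-labelled list and 2601 in the vehicle list. The site at 52934338 to 52936628 scored 2554, 2857 and 1500 in the same order of lists. The site at 52969822 to 52971360 scored 1308, 1811 and 864. The remaining 3 of the 7, at 52937653 to 52938909, 52955630 to 52957071 and 52985593 to 52987130, had scores of 734 to 967 in the 4-OHT list, 534 to 1226 in the twice-labelled list and 414 to 596 in the vehicle list. At the 7 sites the rank difference between the 4-OHT and vehicle lists stayed between −3.6 and 3.3 percentage points, and that between the twice-labelled and vehicle lists between −9.8 and 0.6.

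The exception at Dbp was a site at 52977293 to 52979214, which the vehicle list lacked. It scored 359.5 in the 4-OHT list and 337 in the twice-labelled list, with widths of 1526 and 1813 bp. It scored above 97.8% of the 7335 sites that the 4-OHT and twice-labelled lists share without the vehicle list. Of the 2167 sites of the 4-OHT list within a factor of 1.1 of its score, 136 (6.28%) had this pattern. It had the highest scores of the member sites with this pattern, and was singled out after its values had been seen. A weak site 147 bp above the leading Dbp site (52964288 to 52964934) was in the twice-labelled list alone, with a score of 88.1.

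Bhlhe40, the gene of the E-box repressor DEC1, had 5 of its 6 sites in every list. The site nearest above the leading site, at 108614967 to 108616387, scored 424 in the 4-OHT list, 494 in the twice-labelled list and 140 in the vehicle list. Its rank among the sites found in every list was 17.7 percentage points higher in the 4-OHT list than under vehicle, and 20.5 points higher in the twice-labelled list. As large a difference in both was seen at 424 of the 31871 sites (1.33%). Its differences were the highest of the 34 member sites found in every list, and it was singled out after its values had been seen. The site at 108617469 to 108619322 scored 2026 in the 4-OHT list, 1899 in the twice-labelled list and 1070 in the vehicle list. Its ratio of 1.89 between the 4-OHT and vehicle lists lay nearer to the genome's 1.53 than the ratio of 3.02 at its neighbour.

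The other Bhlhe40 sites lay 14324 to 30246 bp above the leading site. The site at 108626519 to 108628670 scored 968 in the 4-OHT list, 1451 in the twice-labelled list and 579 in the vehicle list. The site at 108642441 to 108643572 scored 796, 557 and 367 in the same order of lists. Between them, a weak site at 108638034 to 108638985 scored 176 in the 4-OHT list and 161 in the twice-labelled list, and the vehicle list lacked it.

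Ranks did not shift in 1 direction over the 5 genes. At the 34 sites found in every list, the median rank difference between the 4-OHT and vehicle lists was 0.20 percentage points. Of these sites, 17 were higher and 17 lower. Over all sites found in every list the median was −0.54, with 15242 higher and 16624 lower. Sites at the ceiling in every list are tied, so their difference of −3.6 comes from the number of ties in each list. Without them, 26 member sites had a median of 2.12, with 17 higher and 9 lower. The 29140 such sites of the genome had a median of 0.49, with 15233 higher and 13902 lower. Sites at the ceiling in the 4-OHT list but not in the vehicle list can only rank higher, in the members and in the genome. The quartiles over all sites found in every list were −5.1 and 5.5. By gene, the 5 Nr1d1 sites below the ceiling in some list were all higher, by 2.2 to 15.1 points. Of these, 98646530 to 98651422 was at the ceiling in the 4-OHT list and not in the vehicle list, so it could only rank higher. At Per2, 3 of the 4 such sites were lower, with a difference of −0.3 points at 1 of them. Between the twice-labelled and vehicle lists, the same Nr1d1 sites differed by −2.8 to 15.1 points. The same Per2 sites differed by 9.8, 1.8, −25.8 and 2.4 points, so 3 of the 4 were higher there.

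**Figure D4:**
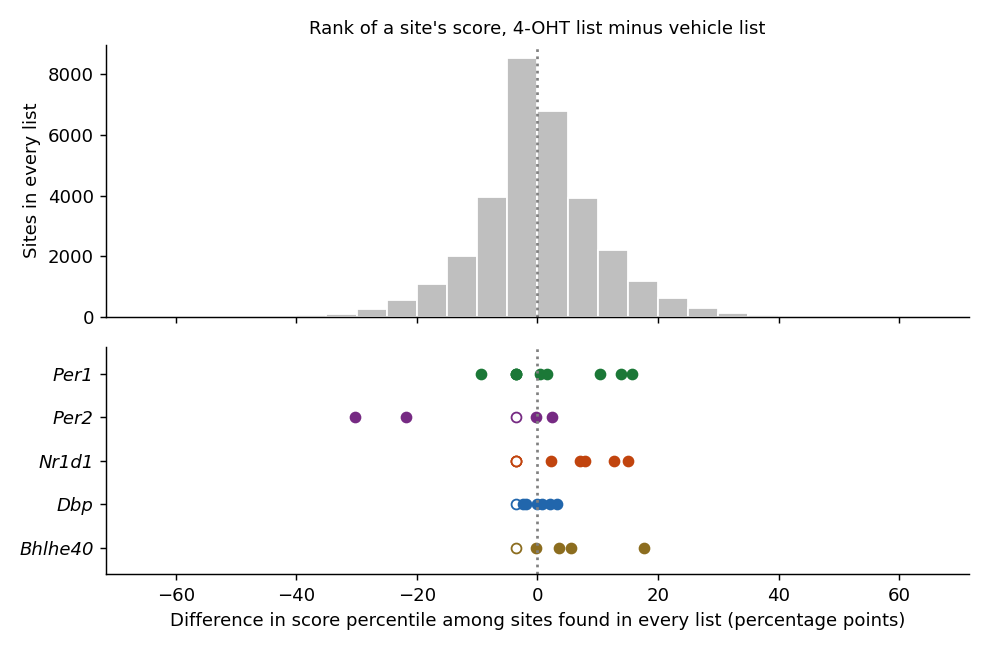
Difference in score percentile between the 4-OHT list and the vehicle list, in percentage points, for the 31871 sites found in every list (grey bars, number of sites) and the 34 member sites by gene (points). Open points are sites at the ceiling in every list; the Per2 points at −30.3 and −21.8 lie far left, and the Dbp points lie close to 0.

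At 3 of the 34 sites (8.82%) the score itself was lower in the 4-OHT list than under vehicle, against 8.46% of all sites found in every list. These were the 1 Per1 site and 2 Per2 sites described above. The score was equal at the 8 ceiling sites and higher at the other 23, with a median ratio of 1.63 over the 34 sites. In the twice-labelled list it was also lower than in the vehicle list at 3 of the 34, against 7.14% of all. Both lists were lower than the vehicle list at 2 sites, Per1 at 68922753 to 68925224 and the weak Per2 site at 93324874 to 93325828 (5.88%, against 2.86%).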

How the data were processed

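DNase-seq peak lists of 4 libraries were used, and the sonicated input was not used here. Per the submitters' processing notes, the tools were BWA 0.6.2, SAMtools and MACS 1.4.1 on the build mm9, with settings not given. The deposited score is the peak caller's own value, which in MACS is −10 log10 of a p-value (inferred from the caller's name, as the files have no header). Whether peaks were called per library, and the depth, are not given in the sources used here, so no read-based error can be given. Scores of different lists are on scales that may differ with depth, so differences and ratios of scores between lists are descriptions, to be read against the median ratio over all sites found in every list.

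Peaks overlapping by 1 bp were merged into sites (checked with bedtools 2.31.1), and a site took its highest score in each list. On 7000 simulated sites of known class, the merge put 100% in the right class. Each simulated site had the same outer ends in its lists and did not touch its neighbours. The result therefore checks the code only, and not how well presence is called in these lists. Starts are counted from 1. Ranks are mid-rank percentiles among the sites found in every list. Promoter letters came from RefSeq (GRCm38.p6). Python 3.11.15, numpy 2.4.6, pandas 2.3.3, scipy 1.17.1 and matplotlib 3.10.9 were used. The members, gene lists and letters searched were chosen with earlier results of these data known. In every window the leading site, ceiling sites, sites missing from a list, and the widest and lowest-scoring sites were to be named, and the other sites were added. Promoter position was planned and not run. The share of sites of like score (within a factor of 1.1), the share of sites with as large a rank difference, the tiles and the runs were chosen with the data in view. The alternatives were a score minimum of 100, equal list length, merging within 500 bp, membership by midpoint, windows shortened by 10 kb at each end, and leaving out each list.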

Additional observations from a re-analysis of the deposited data

How the results depend on the processing

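Of 78 values recomputed under the alternatives, 20 could not change by construction (the bp and percentiles of a list when sites were merged or another list was left out, and those of the shortest list at equal length). Of the other 58, 53 stayed within 1.5 times the main count or within the interval of the main median, and 5 moved. The 8 sites of the 4-OHT list that went uncalled in the vehicle list became 4 at equal list length (35149 peaks each), 5 with a score of at least 100, and 5 when peaks within 500 bp were merged. In the last case the 3 sites of the Nr1d1 run became 1, and the Nr1d1 site at 98604965 to 98605945 joined a neighbour below the window that has a vehicle peak. The 2 vehicle sites without a 4-OHT peak became 3 at equal list length and 1 with a score of at least 100. No share over all sites is given for the alternative settings, so these counts have no background beside them. Shortening the windows by 10 kb at each end left 7 of the 11 Per1 sites. Leaving out each list in turn gave 42 to 45 sites. The presence counts between the 4-OHT and vehicle lists could be recomputed only without the twice-labelled list, and were 8 and 2 again. Depth is unknown, so an uncalled site may still be open. No paired analysis was possible because no result comes from a test and 1 list stands under both labels.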
